A study of Prunus persica and Prunus armeniaca with 129 samples.

Results

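Flowers of the early blooming apricot A2137 were set against buds of the same genotype at the petal visible stage, the last bud stage sampled before bloom. The comparison takes in every library of A2137 whose label gives 800 chill hours and flower tissue (3 libraries) and every library of A2137 whose label gives the petal visible stage and bud tissue (3 libraries), so 6 of the 60 apricot libraries and of the 129 libraries of the whole series. The study followed floral buds of apricot and peach genotypes from dormancy to bloom by RNA sequencing, with one library for each tree at a stage. Whether the same trees gave the flowers and the buds is not given in the labels. A2137, of the cultivar Bakour, is a clonally propagated genotype, so the 3 trees of a stage are repeats of 1 genotype, and p-values measure the spread between trees. The labels give chill hours, that is hours of winter cold, for the flowers and a bud stage for the buds. They do not give the age of the open flowers or the floral organs that went into a flower library. A1956, of the cultivar Palsteyn, is the other genotype that was in flower at 800 chill hours, with 2 flower and 2 petal visible libraries, and serves here for comparison.

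A flower bud at the petal visible stage holds organs in rapid enlargement: petals that grow by cell expansion and lay down pigment, stamens that have formed pollen, and a pistil with ovules. At bloom, expansion ends, anthers open, and petals and stamens later age and drop while the pistil remains. Aging petals of many species are known to respond to ethylene, to break down their walls and contents, and to send sugars and other nutrients back to the plant.

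The 6 libraries held 21690283, 15973703 and 15582291 counted reads in flowers and 12920477, 13511360 and 23135762 in petal visible buds. Between 22238 and 23014 genes had at least 1 read, and the 10 genes with most reads took 3.64% to 5.92% of a library. Levels are given in CPM, the counts of a gene scaled to a common library size, and a level of 3 reads corresponded to 0.138 to 0.279 CPM in these libraries. Pearson correlations of log2 CPM, taken across genes that are not independent of each other, were 0.986 to 0.992 between flower libraries, 0.988 to 0.993 between petal visible libraries and 0.861 to 0.874 between a flower and a petal visible library. Reads of apricot were counted on genes of the peach genome, so a level also depends on how well each apricot gene resembles its peach counterpart, and CPM are compared here between samples of 1 gene only.

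Of 22472 genes tested, 2316 (10.3%) were higher and 2364 (10.5%) were lower in flowers than in petal visible buds. A gene was called when its change exceeded 2-fold by edgeR's test against that fold, with a Benjamini-Hochberg adjusted p below 0.05 over all genes. Changes were large: 892 of the higher and 977 of the lower genes differed by more than 8-fold, and 244 and 253 by more than 32-fold. The 3 flower libraries did not overlap the 3 petal visible libraries for 2291 of the higher and 2352 of the lower genes. Such separation was common, since 65.3% of all tested genes had it, called or not. The median log2 fold change over all genes was 0.03. As a description of their weight, the genes called higher took 18.1%, 17.0% and 19.7% of the reads of the flower libraries and 2.93%, 2.66% and 2.86% of those of the petal visible libraries, while the genes called lower took 5.05%, 4.63% and 4.51% in flowers and 26.8%, 25.8% and 26.2% in petal visible buds.

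**Figure D1:**
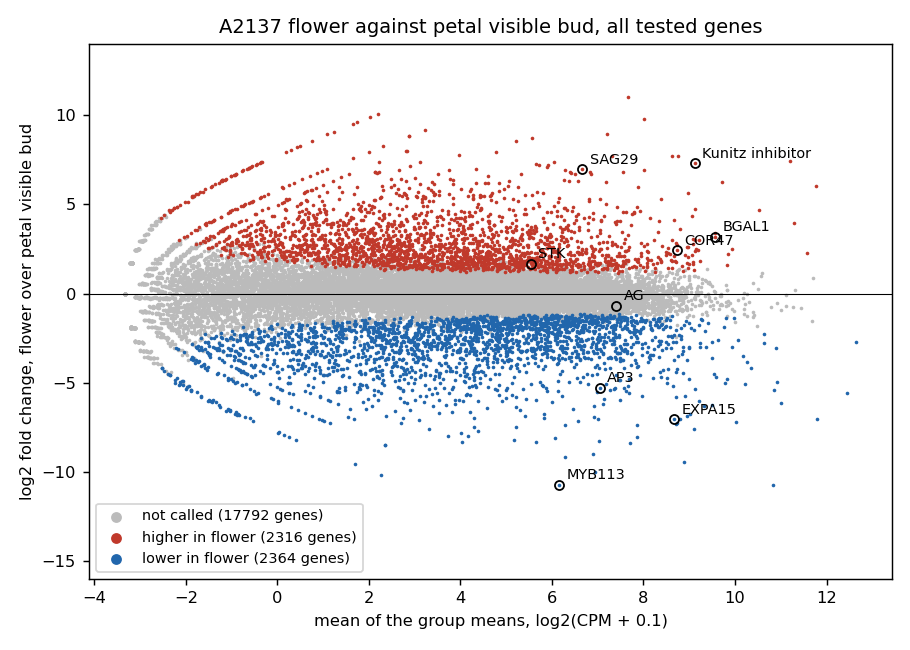
Log2 fold change of flower over petal visible buds in A2137 (vertical axis) against the mean of the group means (horizontal axis, log2 of CPM + 0.1). Each of 22472 tested genes is 1 point, with the 2316 genes called higher in flowers in red and the 2364 called lower in blue. Both colours span weakly and strongly expressed genes, and circles mark genes described in the text.

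The homeotic gene AP3 (Prupe.7G164100), which specifies petals and stamens, had 5.86, 3.47 and 10.5 CPM in flowers and 232, 290 and 251 CPM in petal visible buds. Every flower library lay far below every bud library, and the fall was -5.29 ± 0.34 on the log2 scale (SE, n = 3 each, edgeR adjusted p = 8.33e-15). AG (Prupe.4G070500), which specifies stamens and carpels, had 138, 133 and 118 CPM in flowers and 234, 208 and 185 CPM in petal visible buds. These groups did not overlap either, but the difference of -0.69 ± 0.25 was under 2-fold and was not called (edgeR adjusted p = 1). AP1 (Prupe.3G249300), a gene of sepal and petal identity, had 8.90 to 10.4 CPM in flowers and 9.26 to 11.7 CPM in buds, and these ranges overlapped.

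STK (Prupe.1G549600), which acts in ovule identity, had 76.2, 85.6 and 50.9 CPM in flowers against 21, 23.6 and 21.7 CPM in petal visible buds. All flower libraries were above all bud libraries, and the log2 difference of 1.68 ± 0.39 just missed the threshold (edgeR adjusted p = 0.0511). Without flower replicate 3, the lowest of the flower libraries for STK, the adjusted p was 0.0305, and in a fit of the 6 compared libraries it was 0.00421. INO (Prupe.1G250500), needed for the outer integument of the ovule, and VDD (Prupe.1G388300), a regulator in the embryo sac, were not called, with log2 differences of -0.47 and 0.60. None of the 3 tested members of the ovule list was called by edgeR or by DESeq2, though 2 were higher at an unadjusted p under 0.05 for no change, and the other 3 members had too few reads to be tested. The summed level of the ovule list was 54.8 to 90.2 CPM in flowers and 24.7 to 26.6 CPM in buds, and STK, which was not called, made up 92.8% to 94.9% of it in flowers and 84.6% to 88.5% in buds.

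Of 12 floral MADS-box genes and their partners, 9 were tested, of which 1 was called higher and 2 lower, with a median log2 difference of 0.77. The shares over all genes tested were 10.3% and 10.5%. AGL42 (Prupe.2G287500), a relative of the flowering time gene SOC1, had 21.1, 19.4 and 27.3 CPM in flowers and 7.72, 6.61 and 7.0 CPM in petal visible buds. It rose by 1.67 ± 0.18 (SE, edgeR adjusted p = 0.000336), with no overlap between the groups. SVP (Prupe.8G069300), which represses flowering in Arabidopsis, had 3.51, 2.92 and 2.78 CPM in flowers and 10.8, 8.60 and 8.99 CPM in buds, lower by a log2 difference of -1.61 ± 0.24 (edgeR adjusted p = 0.00846). Its call was lost with DESeq2 in place of edgeR (adjusted p = 0.0833). LFY (Prupe.5G140700), AGL6 (Prupe.2G287000) and AGL10 (Prupe.3G307800) had log2 differences of 0.77, 1.18 and 0.96 and were not called.

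Genes of the tapetum, the layer that feeds developing pollen and makes the sporopollenin of its wall, were at low levels at both stages. The 11 members of this list together had 11 to 16.7 CPM in flowers, 20.8 to 25.1 CPM in petal visible buds and 4357 and 4882 CPM in A2137 buds at 400 chill hours, and 1 of the 11 was called. That gene was LAP3 (Prupe.1G192200), needed for a regular exine, with 0.461, 0.0609 and 0.135 CPM in flowers and 13.9, 18 and 14.8 CPM in petal visible buds. The flower levels were near the level of 3 reads, and the log2 difference was -5.96 ± 0.54 (SE, edgeR adjusted p = 2.96e-10). The other members had log2 differences between -0.87 for Prupe.1G340300 (named TAPETUM 1) and 1.45 for CYP704B1 (Prupe.1G277400), an enzyme of sporopollenin synthesis, none of them called. Among all genes tested, 10.3% were called higher and 10.5% lower. Without LAP3, the list summed to 10.9 to 16.2 CPM in flowers and 6.88 to 10.3 CPM in petal visible buds, so its lower sum in flowers came from LAP3 alone.

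Of 10 genes for pollen Ole e 1 proteins, secreted proteins first known as pollen allergens, and for the pollen cell wall, 9 were tested. Of these, 3 were called, all lower, where 10.5% of all genes tested were lower. The median log2 difference was -1.89. The list summed to 23.4 to 32.3 CPM in flowers and 134 to 229 CPM in petal visible buds. Most of this came from the Ole e 1 gene Prupe.4G061100, with 23.9, 17.2 and 17.3 CPM in flowers and 156, 120 and 199 CPM in petal visible buds, lower by -3.02 ± 0.46 (SE, edgeR adjusted p = 3.91e-05). The Ole e 1 gene Prupe.3G204300 had 0.138, 0.122 and 0.271 CPM in flowers and 2.42, 0.909 and 2.09 CPM in buds (log2 difference -3.34 ± 0.55). CSLD1 (Prupe.1G003500), a cellulose synthase-like enzyme of the pollen tube wall, had 6.37, 4.63 and 4.13 CPM in flowers and 19.5, 12.1 and 24.1 CPM in buds. The groups were apart for all 3 genes. The call of CSLD1 (log2 difference -1.88 ± 0.46, edgeR adjusted p = 0.0400) was lost with DESeq2 (adjusted p = 0.573) and without flower replicate 2 or 3 or petal visible replicate 1 or 3 (adjusted p of 0.0674 to 0.149).

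Among the organ markers, AP3, LAP3 and 3 pollen genes were lower in flowers, while AP1, AG, STK and the other tapetum and ovule genes tested were not called. In RNA from the mixed cells of flowers and buds, fewer cells of a kind and less RNA per cell cannot be told apart. The organs in a flower library are not given in the labels, and the part of organ composition in the other differences was not tested.

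**Figure D2:**
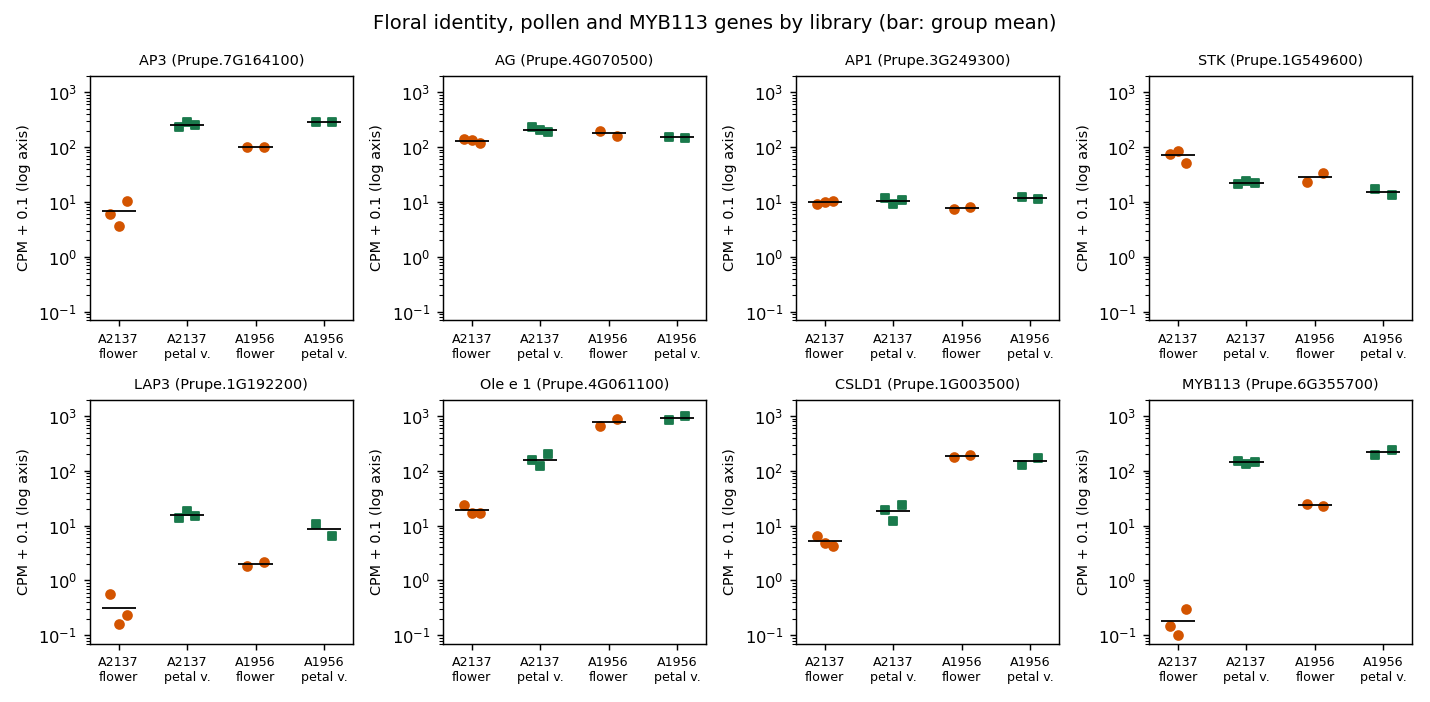
Levels of 8 genes of floral identity, pollen and pigment by library (log axis, CPM + 0.1), with flower libraries as orange circles, petal visible libraries as green squares, and a bar at each group mean, for A2137 on the left and A1956 on the right of each panel. AP3 lay at 3.47 to 10.5 CPM in A2137 flowers and 232 to 290 CPM in A2137 petal visible buds, while AP1 overlapped between the stages.

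MYB113 (Prupe.6G355700), of the family of MYB factors that switch on anthocyanin pigment synthesis, was nearly absent from flowers. It had 0.0461, 0 and 0.203 CPM in flowers, a total of 4 reads, against 148, 131 and 148 CPM in petal visible buds. The ratio of reads, scaled to depth, was 1891-fold lower in flowers, with a 95% counting interval of 738 to 6943, which covers counting error only (edgeR adjusted p = 1.25e-14). KDR (Prupe.1G271700), a small helix-loop-helix protein that promotes cell elongation in Arabidopsis, had 0.600, 0.244 and 0.474 CPM in flowers and 27.9, 30.2 and 28.7 CPM in buds. Its log2 difference was -5.99 ± 0.41 (SE, edgeR adjusted p = 1.25e-13). GSTF13 (Prupe.5G014900), a glutathione S-transferase, had 0.277, 0.426 and 0.203 CPM in flowers and 12.5, 10.1 and 14.2 CPM in buds, a difference of -5.30 ± 0.70. In all 3 of these genes the flower libraries were near the limit of detection.

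EXPA15 (Prupe.3G265800), an expansin, one of the proteins that loosen walls so that cells can enlarge, had 6.23, 8.04 and 3.93 CPM in flowers and 694, 896 and 826 CPM in petal visible buds. No library came near the other group, and the log2 difference was -7.05 ± 0.36 (SE, edgeR adjusted p = 2.93e-18). A pectate lyase (Prupe.1G239900), an enzyme that cuts pectin, had 29.9, 30.4 and 15.9 CPM in flowers and 387, 491 and 447 CPM in buds, lower by -4.12 ± 0.37. BGAL3 (Prupe.7G163100), a beta-galactosidase, which trims galactose from wall polymers, was lower by -1.76 ± 0.20.

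Other wall genes went the opposite way, so the list of 16 had 4 members higher and 3 lower, with a median log2 difference of 0.39. Among all genes tested, 10.3% were higher and 10.5% lower. The beta-galactosidase BGAL1 (Prupe.7G210000) had 1043, 1291 and 1756 CPM in flowers and 169, 135 and 145 CPM in petal visible buds. It rose by 3.19 ± 0.24 (SE, edgeR adjusted p = 2.72e-11), with a wide gap between the groups. EXPA4 (Prupe.2G237000), another expansin, had 40.04, 37.3 and 29.1 CPM in flowers and 5.58, 7.27 and 8.45 CPM in buds, a rise of 2.31 ± 0.30, while the second gene of that name (Prupe.6G075100) had a difference of -1.11 ± 0.18 that was not called. XTH2 (Prupe.8G201000), of the enzymes that cut and rejoin xyloglucan, had 3.88, 2.86 and 2.71 CPM in flowers and 0, 0.165 and 0.0994 CPM in buds. The buds held 4 of its reads in all, and the ratio of 34.8 had a 95% counting interval of 13.3 to 129. The call of this gene was lost in an edgeR fit of all A2137 libraries without the other genotypes (adjusted p = 0.0554). The neighbouring XTH2 gene (Prupe.8G200900) rose by 3.50 ± 1.01 (SE, edgeR adjusted p = 0.0199), and since the handling of reads shared by near copies is not given in the sources used here, the values of such pairs are uncertain.

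Of the 10 largest falls among annotated genes with a mean of at least 10 CPM in buds, 2 were in genes of lipid-related families. A lipid transfer protein (Prupe.8G102700), of a family that carries lipids to the cuticle, had 0.0461, 0.244 and 0 CPM in flowers and 11.4, 28.8 and 18.7 CPM in petal visible buds. Its log2 difference was -7.58 ± 0.59 (SE, edgeR adjusted p = 1.99e-11). A GDSL lipase (Prupe.3G294500), of a family with members that act in cutin formation, had 0.0461, 0.122 and 0.0677 CPM in flowers and 8.93, 11.9 and 9.29 CPM in buds, with 4 reads in the flowers and a 131-fold lower ratio there (95% counting interval 50.9 to 484). Both genes were at or near the limit of detection in flowers.

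The other 3 of the 10 largest falls were in a transporter and in proteins with no known function. A gene for a protein of unknown function (DUF1997 domain, Prupe.3G263500) had 6.50, 3.05 and 6.63 CPM in flowers and 939, 806 and 772 CPM in petal visible buds, a difference of -7.28 ± 0.66 (SE, edgeR adjusted p = 3.01e-11). An EamA-like transporter gene (Prupe.6G249600), of a membrane carrier family, had 1.75, 1.40 and 2.57 CPM in flowers and 139, 125 and 117 CPM in buds (-6.06 ± 0.36). A DUF679 gene (Prupe.6G331700) had 0.738, 0.122 and 0.474 CPM in flowers and 24, 14.4 and 19.1 CPM in buds (-5.34 ± 0.63). For each of them every bud library lay far above every flower library.

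**Figure D3:**
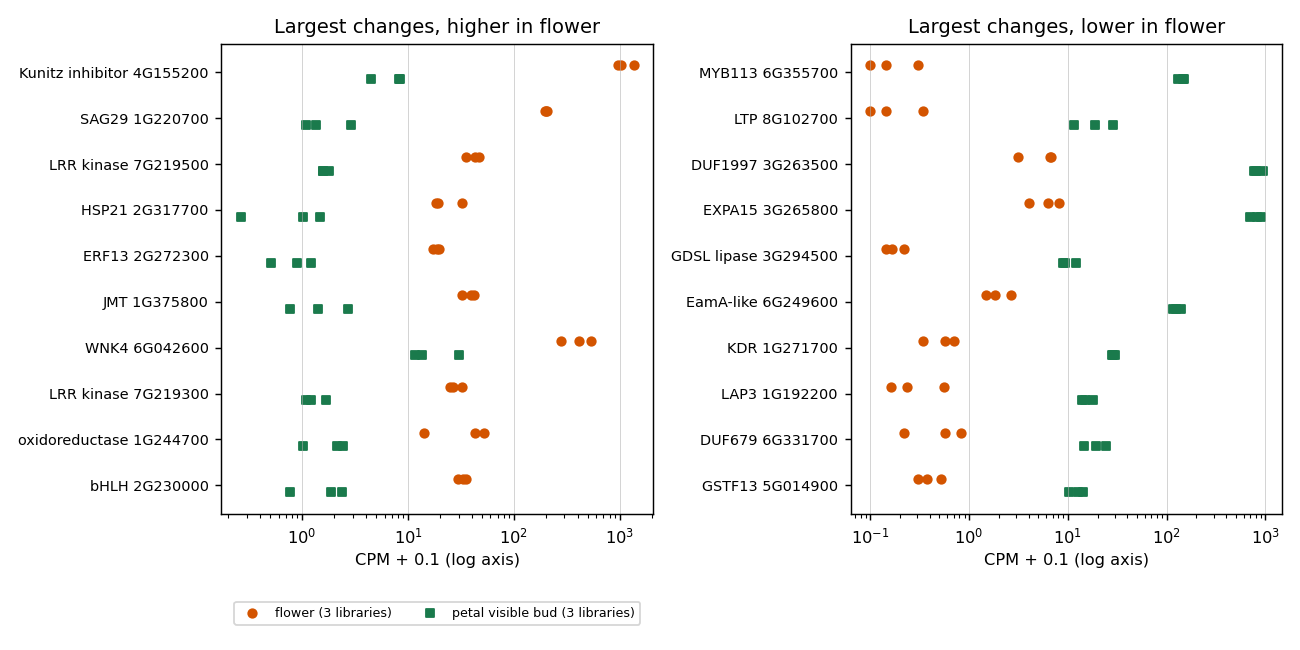
The 10 annotated genes with the largest rise (left) and the 10 with the largest fall (right) in A2137 flowers, by library (log axis, CPM + 0.1), with 3 flower libraries as orange circles above 3 petal visible libraries as green squares. The ranking was among called genes with no overlap and a mean of at least 10 CPM in the higher group. The Kunitz inhibitor gene lay at 952 to 1351 CPM in flowers and 4.38 to 8.37 CPM in petal visible buds, and MYB113 at no more than 0.203 CPM in flowers and at least 131 CPM in buds.

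Of 9 genes of ethylene and senescence, 8 were tested, of which 5 were called higher and none lower. Over all genes tested, 10.3% were called higher and 10.5% lower. The median log2 difference of the list was 1.71. Its sum was 1077 to 1470 CPM in flowers and 282 to 320 CPM in petal visible buds. SAG29 (Prupe.1G220700), a sugar transporter of the SWEET family whose expression marks aging leaves in Arabidopsis, had 202, 196 and 204 CPM in flowers and 2.79, 1.24 and 0.994 CPM in buds. The flower libraries lay close together, and the rise was 6.98 ± 0.56 on the log2 scale (SE, edgeR adjusted p = 2.96e-12). ACO4 (Prupe.3G209900), the enzyme of the last step of ethylene synthesis, had 608, 506 and 854 CPM in flowers and 148, 138 and 166 CPM in buds. It rose by 2.12 ± 0.32 (SE, edgeR adjusted p = 0.000552).

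Downstream, EIN3 (Prupe.2G058500), the central transcription factor of the ethylene response, had 236, 244 and 270 CPM in flowers and 100, 99.4 and 110 CPM in petal visible buds, a small but tight rise of 1.27 ± 0.09 (SE, edgeR adjusted p = 0.00267). The ethylene response factor ERF13 (Prupe.2G272300) had 18.6, 19.3 and 16.9 CPM in flowers and 1.12, 0.413 and 0.795 CPM in buds (4.56 ± 0.65), and EBP (Prupe.1G130300), another such factor, had 60.6, 55.1 and 71.8 CPM in flowers and 10.05, 5.54 and 8.20 CPM in buds (2.98 ± 0.24). None of these 3 overlapped between the stages. The protease gene SAG12 (Prupe.5G056500), a marker of late leaf senescence, had no reads in any of the libraries of A2137 or A1956 at these stages, where 3 reads would be 0.138 to 0.346 CPM.

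Of 11 genes of sugar transport and use, 10 were tested, of which 4 were called higher and none lower. The shares over all genes tested were 10.3% and 10.5%. The list had a median log2 difference of 1.33 and a sum of 1994 to 2522 CPM in flowers against 564 to 767 CPM in petal visible buds. The hexose importer genes STP13 had 147, 136 and 174 CPM (Prupe.1G157000) and 257, 200 and 326 CPM (Prupe.1G156300) in flowers, against 10.2, 11.5 and 10.03 CPM and 35.4, 30 and 38.3 CPM in buds. Both copies were well apart, with log2 differences of 3.85 ± 0.29 and 2.91 ± 0.33 (SE, edgeR adjusted p = 3.22e-12 and 5.98e-07). Alpha-amylase AMY3 (Prupe.1G268300), which breaks down starch, had 355, 371 and 371 CPM in flowers and 120, 117 and 120 CPM in buds, a rise of 1.62 ± 0.12. Sucrose synthase SUS3 (Prupe.8G264300), which splits sucrose for use, had 1299, 1219 and 1582 CPM in flowers and 547, 353 and 440 CPM in buds, a rise of 1.61 ± 0.20. The sucrose transporter SUC4 (Prupe.1G542000), with a difference of 1.04 ± 0.15, and the neutral invertase Prupe.6G229900, with -0.26 ± 0.17, were not called. Outside this list, the vacuolar invertase gene BETAFRUCT4 (Prupe.2G277900) was lower in flowers by -5.02 ± 0.26.

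A Kunitz inhibitor is a blocker of proteases that plants use in defence and during tissue aging. Among annotated genes with a mean of at least 10 CPM in flowers, the gene of such an inhibitor (Prupe.4G155200) rose most. It had 1351, 952 and 1034 CPM in flowers and 8.37, 4.38 and 8.15 CPM in petal visible buds, a log2 difference of 7.31 ± 0.99 (SE, edgeR adjusted p = 2.80e-07). JMT (Prupe.1G375800), which makes the volatile methyl jasmonate, had 39.6, 32.5 and 42.1 CPM in flowers and 1.30, 0.661 and 2.63 CPM in buds (4.55 ± 0.36). The groups were far apart for both.

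Signalling genes were also among the 10 largest rises of annotated genes with a mean of at least 10 CPM in flowers. The kinase WNK4 (Prupe.6G042600) had 414, 278 and 536 CPM in flowers and 30.1, 11.6 and 13.5 CPM in petal visible buds (log2 difference 4.49 ± 0.37). The leucine-rich repeat kinases, a family that holds many cell surface receptors, gave Prupe.7G219500 with 42.9, 35.2 and 46.8 CPM in flowers and 1.67, 1.49 and 1.49 CPM in buds (4.75 ± 0.30), and Prupe.7G219300 with 26.5, 24.7 and 32.4 CPM in flowers and 1.12, 0.992 and 1.59 CPM in buds (4.45 ± 0.36). By its identifier Prupe.7G219400, a gene of the same family, lies between them, with 9.23, 6.70 and 8.66 CPM in flowers and 0.186, 0.248 and 0.348 CPM in buds (4.86 ± 0.40), and reads may be shared among the 3. A helix-loop-helix factor (Prupe.2G230000) had 32.8, 29.7 and 34.9 CPM in flowers and 1.77, 0.661 and 2.29 CPM in buds (4.32 ± 0.50). An oxidoreductase gene (Prupe.1G244700) had 42.6, 14.1 and 51.7 CPM in flowers and 2.33, 0.909 and 2.04 CPM in buds (4.35 ± 0.36), and flower replicate 2 was the lowest of its group by a wide margin but still above every bud library.

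Of 10 terpene synthases and chitinases, 2 were called higher and 2 lower, with a median log2 difference of 0.49. The shares over all genes tested were 10.3% and 10.5%. The chitinase EP3 (Prupe.1G204700), an enzyme that cuts chitin, the wall polymer of fungi, had 56.5, 29.6 and 54 CPM in flowers and 3.35, 2.56 and 5.32 CPM in petal visible buds, a rise of 3.61 ± 0.34 (SE, edgeR adjusted p = 1.82e-09), and its neighbour Prupe.1G204800 rose by 1.75 ± 0.37. The terpene synthases TPS03, of a family that makes volatile terpenes, had 1.61, 0.792 and 3.11 CPM (Prupe.4G125300) and 0.369, 0.305 and 0.474 CPM (Prupe.4G125200) in flowers, against 46.7, 32.1 and 32.9 CPM and 4.47, 5.45 and 6.06 CPM in buds. Both fell beyond the spread of the libraries, with log2 differences of -4.35 ± 0.39 and -3.79 ± 0.52 (SE, edgeR adjusted p = 2.13e-10 and 3.20e-06).

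Of 15 class III peroxidases, which act on wall phenolics and hydrogen peroxide, 14 were tested, and 6 were called higher and 2 lower. Among all genes tested, 10.3% were higher and 10.5% lower. The median log2 difference of the peroxidases was 1.71. The list summed to 159 to 183 CPM in flowers and 58.9 to 72.5 CPM in petal visible buds. Prupe.6G239400 had 29.9, 22.1 and 40.1 CPM in flowers and 2.42, 2.23 and 2.48 CPM in buds (log2 difference 3.68 ± 0.32, edgeR adjusted p = 1.13e-09). Prupe.2G260800 had 62.6, 55.4 and 47.2 CPM in flowers and 5.12, 4.46 and 19 CPM in buds (2.49 ± 0.44), where petal visible replicate 3 stood above the other bud libraries. Prupe.6G191900 had 1.15, 1.28 and 2.10 CPM in flowers and 2 reads in all in the buds, a ratio of 31.3 with a 95% counting interval of 8.38 to 263. Against the direction of these genes, Prupe.7G035800 had 0.231, 0.305 and 0.203 CPM in flowers and 2.33, 2.73 and 1.99 CPM in buds, a difference of -3.20 ± 0.51.

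Heat shock proteins, which keep other proteins folded under stress, included 3 called higher and none lower of 14 tested of 15. The shares over all genes tested were 10.3% and 10.5%. The median log2 difference of the list was 1.07, with 12 of 14 above 0. The plastid chaperone HSP21 (Prupe.2G317700) had 19, 18.1 and 32 CPM in flowers and 0.930, 0.165 and 1.39 CPM in petal visible buds, a rise of 4.66 ± 0.53 (SE, edgeR adjusted p = 4.56e-08). A small HSP20 gene (Prupe.2G243800) had 25.3, 18.8 and 92.7 CPM in flowers and 4.84, 1.82 and 10.9 CPM in buds (2.91 ± 0.53). Flower replicate 3 was the high one, and without it the difference was 1.87 and not called (adjusted p = 0.0638). An HSP70 gene (Prupe.7G108400) had 8.40, 6.4 and 7.65 CPM in flowers and 1.58, 1.07 and 1.39 CPM in buds (2.47 ± 0.34), and HSP101 (Prupe.5G203700), which pulls apart aggregated proteins, had 96.8, 78.7 and 151 CPM in flowers and 39.8, 38.6 and 63.6 CPM in buds, a difference of 1.20 ± 0.28 that was not called.

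Of 6 cold protection genes, 3 were higher and 1 was lower, with a median log2 difference of 1.63. Among all genes tested, 10.3% were higher and 10.5% lower. The dehydrin COR47 (Prupe.7G161100), which protects cells during water loss and frost, had 659, 583 and 900 CPM in flowers and 140, 126 and 132 CPM in petal visible buds, a rise of 2.43 ± 0.30 (SE, edgeR adjusted p = 1.61e-05). The 6 genes together had 646 to 994 CPM in flowers and 146 to 170 CPM in petal visible buds. They had 621 to 838 CPM in A2137 buds of the sepal visible stage, which comes just before petal visible. In this sum the petal visible stage was thus the low one of the 3. COR47 made up most of the sum at each of these stages, with 803, 594 and 726 CPM in sepal visible buds. CAP160 (Prupe.2G294400), a gene of cold acclimation, had 40.7, 36.3 and 51.3 CPM in flowers and 9.40, 4.55 and 6.71 CPM in petal visible buds (2.64 ± 0.37), and the galactinol synthase GolS4 (Prupe.1G251600), of raffinose sugar synthesis, rose by 2.17 ± 0.46. A gene with a late embryogenesis abundant domain (Prupe.1G554000) fell by 2.33 ± 0.56 on the log2 scale, at levels of 0.338 CPM or less in flowers and 0.826 to 1.12 CPM in petal visible buds, and its call was lost with DESeq2 (adjusted p = 0.147), with the 6 libraries alone (0.0765) and without flower replicate 1 (0.166).

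Among 18 gibberellin and auxin genes, 3 were higher and 3 lower, with a median log2 difference of -0.16. Over all genes tested, 10.3% were higher and 10.5% lower. The gibberellin 2-oxidases, which inactivate this growth hormone, gave both of the strongest rises: GA2OX8 (Prupe.1G344000) had 29.5, 19.6 and 25.5 CPM in flowers and 2.51, 2.56 and 2.78 CPM in petal visible buds (log2 difference 3.24 ± 0.24, edgeR adjusted p = 1.71e-11), and Prupe.4G080700 had 5.26, 6.34 and 8.46 CPM in flowers and 0.465, 0.0826 and 0.149 CPM in buds (4.92 ± 0.57). The other copy of GA2OX8 (Prupe.4G204600) had a difference of 0.07 ± 0.53 and was not called.

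The gibberellin-regulated family encodes small secreted peptides of growing tissue. Prupe.4G257500 had 35.4, 40.8 and 24.8 CPM in flowers and 673, 758 and 540 CPM in petal visible buds, and Prupe.3G161500 had 59.1, 50.2 and 44.3 CPM in flowers and 498, 520 and 456 CPM in buds. Flowers lay below buds in every library, by log2 differences of -4.28 ± 0.29 and -3.26 ± 0.22 (SE, edgeR adjusted p = 1.25e-13 and 9.77e-13). Prupe.8G138400 fell by 2.47 ± 0.38 as well, whereas Prupe.5G178400 rose by 1.76 ± 0.31. All 7 auxin carriers of the PIN, LAX and related genes had log2 differences between -0.93 and 0.33 and none was called.

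Of 17 cell cycle genes, none was called higher and 2 were called lower, with a median log2 difference of 0.62. Over all genes tested, 10.3% were called higher and 10.5% lower. The cell cycle inhibitor ICK5 (Prupe.7G135000), a brake on cyclin-dependent kinases, had 3.64, 3.72 and 4.47 CPM in flowers and 43.9, 58.8 and 44.1 CPM in petal visible buds (log2 difference -3.64 ± 0.28, edgeR adjusted p = 2.01e-11). Cyclin CYCD6;1 (Prupe.4G034400) had 5.95, 10.8 and 2.44 CPM in flowers and 27.4, 31.7 and 26 CPM in buds (-2.14 ± 0.38). The mitotic kinase Aurora 1 (Prupe.1G443900) had 57, 61.1 and 36.4 CPM in flowers and 19.4, 18.2 and 21.6 CPM in buds, and a histone gene (Prupe.4G054300) had 82.2, 81.7 and 47.8 CPM in flowers and 40.2, 32.2 and 33.2 CPM in buds. For both, every flower library was above every bud library, but neither passed the 2-fold test (log2 differences 1.38 ± 0.27 and 1.01 ± 0.26). In the sum of the list, flower replicates 1 and 2 (361 and 369 CPM) were above the buds (275 to 289 CPM) and flower replicate 3 (205 CPM) was below them.

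The growth-regulating factors, transcription factors of organ growth, were all above 0 on the log2 scale in flowers, with a median of 0.98. Of these 9, 3 were called higher, where 10.3% of all genes tested were. GRF7 (Prupe.2G317500) had 6.32, 7.01 and 9.75 CPM in flowers and 0.465, 0.579 and 0.695 CPM in petal visible buds, a rise of 3.66 ± 0.27 (SE, edgeR adjusted p = 1.22e-11). GRF5 (Prupe.7G201000) had 27.3, 28.1 and 17.8 CPM in flowers and 4.56, 4.46 and 5.56 CPM in buds (2.32 ± 0.29), and GRF1 (Prupe.6G217000) had 62.3, 67.1 and 50.6 CPM in flowers and 17.0, 12 and 15.4 CPM in buds (2.02 ± 0.16). The other 6 had differences of 0.17 to 1.30.

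The 6 DAM genes, MADS-box repressors named for their role in bud dormancy, were at low levels at both stages, together 5.61 to 7.65 CPM in flowers and 10.5 to 17.3 CPM in petal visible buds, and none was called by edgeR or by DESeq2 (1 was higher and 3 were lower at an unadjusted p under 0.05 for no change). DAM3 (ppa010758m) had 2.35, 2.92 and 3.11 CPM in flowers and 8.28, 5.29 and 7.10 CPM in buds (log2 difference -1.31 ± 0.23, edgeR adjusted p = 0.121), and DAM5 (ppa010822m) had 1.94, 1.10 and 1.29 CPM in flowers and 4.19, 2.56 and 3.53 CPM in buds (-1.21 ± 0.29). These were the only DAM genes whose groups did not overlap. DAM4 (ppa011123m) and DAM6 (ppa010714m) had differences of -0.68 ± 0.28 and -0.60 ± 0.79. DAM1 (ppa018667m), with at most 0.415 CPM, had a ratio of flowers to buds of 5.69 with a 95% counting interval of 1.31 to 51.6. DAM2 (ppb017585m), with 2 reads in the flowers and 3 in the buds, had a ratio of buds to flowers of 1.85 with an interval of 0.211 to 22.1. Tested against no change in place of a 2-fold change, DAM1, DAM3 and DAM5 were called. By the 2-fold test, DAM3 was called without petal visible replicate 2 (adjusted p = 0.0474) and DAM1 without flower replicate 3 (adjusted p = 0.026).

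**Figure D4:**
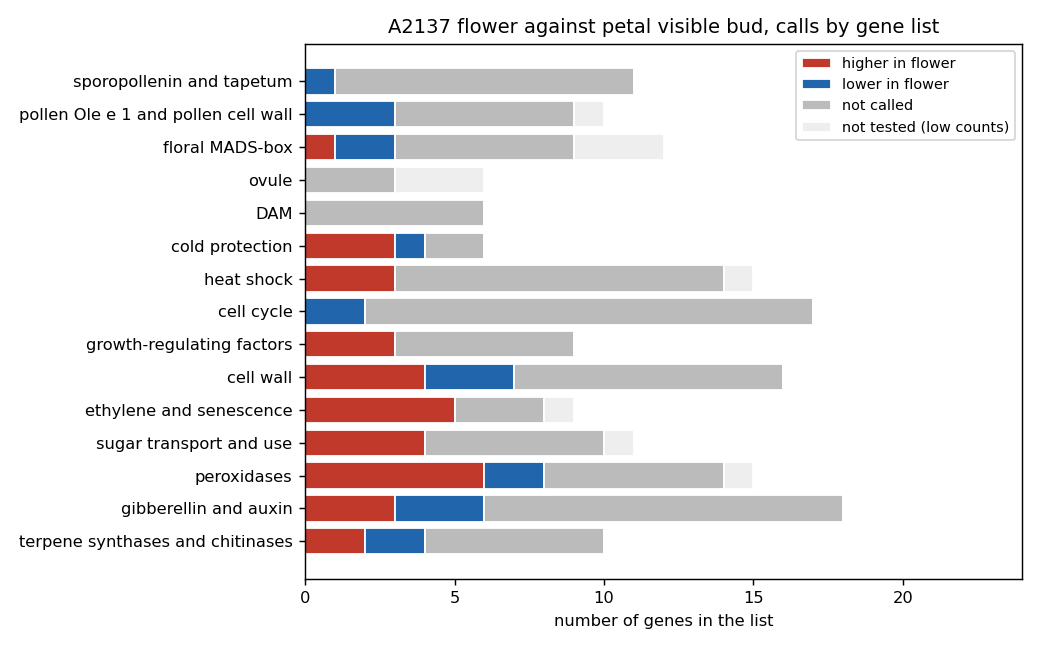
Number of genes called higher in A2137 flowers (red), called lower (blue), tested but not called (grey) and not tested for low counts (light grey) in each of 15 gene lists, with the lists down the page. Ethylene and senescence had 5 of 8 tested genes higher, sugar transport and use 4 of 10 and peroxidases 6 of 14, while the ovule and DAM lists had none called. Over all genes tested, 10.3% were higher and 10.5% lower.

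Over all 15 lists, 159 of 167 different genes were tested, and 34 were called higher and 19 lower. The lists were built from genes that the study annotates, and among all such genes tested, 9.66% were called higher and 8.91% lower. The shares over all genes tested were 10.3% and 10.5%. The lists were chosen with earlier results of these data known, so their counts describe the listed genes and do not test the families. Where a list above had no gene called in a direction, DESeq2 called none either. The test against no change gave, at an unadjusted p under 0.05, 1 tapetum, 1 pollen and 6 cell cycle genes that were higher, and 1 heat shock gene and no ethylene, sugar or growth-regulating factor gene that was lower.

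Most genes have no annotation in the sources used here, and some of these had still larger changes. Prupe.4G097000 had 483, 302 and 429 CPM in flowers and 0.372, 0 and 0.199 CPM in petal visible buds (log2 difference 11.02 ± 0.90, edgeR adjusted p = 1.36e-12). Prupe.1G369800 had 568, 397 and 569 CPM in flowers and 0.279, 0.331 and 0.894 CPM in buds (9.81 ± 1.11). Prupe.6G349200 had 22.7, 8.10 and 24.8 CPM in flowers and 1 read in the buds, a ratio of 805 with a 95% counting interval of 144 to 31820. All 3 were close to absent from the buds.

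On the lower side, Prupe.3G234900 had 2.03, 2.92 and 1.29 CPM in flowers and 2545, 4549 and 3811 CPM in petal visible buds (log2 difference -10.76 ± 0.95, edgeR adjusted p = 6.31e-12). Prupe.1G090000 had 0.369, 0 and 0.271 CPM in flowers and 235, 286 and 212 CPM in buds (-10.03 ± 0.74). Prupe.1G266300 had 0.830, 1.04 and 2.30 CPM in flowers and 873, 1007 and 951 CPM in buds (-9.45 ± 0.67). These genes were at high levels in every bud library and at a trace in every flower library.

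Libraries with the same labels were compared in A1956, where 513 genes (2.28%) were higher and 300 (1.33%) lower in flowers, 3.62% in all. The flowers were taken at a fixed chill total, and the paper gives A2137 as the earliest genotype to reach the sepal visible stage. Flower age may thus differ between the genotypes and cannot be told apart from genotype. The 2 flower and 2 petal visible libraries of A1956 are not part of the A2137 comparison, and only the estimate of the spread is common to both. These counts were less stable than those of A2137, with 264 higher and 184 lower by DESeq2, and 178 to 354 higher and 153 to 204 lower when any 1 of the 4 libraries was left out. Of these genes, 397 were also called higher in A2137, which is 77.4% of the A1956 list and 17.1% of the A2137 list, and 263 were lower in both, which is 87.7% of the A1956 list and 11.1% of the A2137 list. Of the 2316 genes higher in A2137, 2153 (93.0%) also had a log2 difference above 0 in A1956, against 49.95% of all genes, and of the 2364 lower ones 2046 (86.5%) were below 0 in A1956, against 49.3% of all genes. The genes called higher in A2137 had a median log2 difference of 2.60 in A2137, by which they were chosen, and 1.25 in A1956, and those called lower had -2.69 in A2137 and -0.84 in A1956. The genes called lower in A2137 took 18.4% and 19.2% of reads in A1956 flowers and 30.04% and 30.5% in A1956 petal visible buds.

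Several of the genes above were called higher in both genotypes. SAG29 (Prupe.1G220700) had 112 and 110 CPM in A1956 flowers and 2.36 and 1.66 CPM in A1956 petal visible buds, a rise of 5.77 ± 0.65 (SE, edgeR adjusted p = 6.80e-07), and the difference of 1.21 ± 0.80 between the genotypes was not called. The Kunitz inhibitor (Prupe.4G155200) had 100 and 135 CPM in A1956 flowers and 3.10 and 4.11 CPM in A1956 buds (5.04 ± 1.14), and its difference between the genotypes, 2.27 ± 1.35, was not called either. BGAL1 (Prupe.7G210000) had 1319 and 1422 CPM in A1956 flowers and 219 and 259 CPM in A1956 buds (2.52 ± 0.29), and ACO4 (Prupe.3G209900) rose by 2.03 ± 0.39 there. ERF13 (Prupe.2G272300) rose in A1956 by 3.87 ± 0.79. A missing call for the difference does not show that the genotypes changed equally: for ERF13 it was 0.69 ± 1.10.

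The change in A2137 minus the change in A1956 was tested directly, and 280 genes (1.25%) had a more positive change in A2137 and 898 (4%) a more negative one, 5.24% in all. Of the 898, 836 were genes called lower in A2137, and of the 280, 243 were genes called higher in A2137. The difference contains the A2137 change itself, so this overlap is in part built in. DESeq2 called 123 positive and 482 negative differences, and edgeR called 584 negative ones without A1956 petal visible replicate 1. AP3 (Prupe.7G164100) had 103 and 102 CPM in A1956 flowers and 287 and 282 CPM in A1956 petal visible buds, a log2 difference of -1.48 ± 0.35 that was not called, and its change differed between the genotypes by -3.81 ± 0.46 (SE, edgeR adjusted p = 6.07e-06). The Ole e 1 gene Prupe.4G061100 had 660 and 879 CPM in A1956 flowers and 851 and 995 CPM in A1956 buds, and its difference between the genotypes was -2.76 ± 0.68 (edgeR adjusted p = 0.0319). The summed pollen list was 847 and 1087 CPM in A1956 flowers and 993 and 1185 CPM in A1956 buds, so in A1956 it overlapped between the stages, while in A2137 it did not. The part of this in the other differences between the genotypes was not tested.

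MYB113 (Prupe.6G355700) had 24.2 and 22.4 CPM in A1956 flowers and 199 and 238 CPM in A1956 petal visible buds. It fell in both genotypes, by 3.23 ± 0.52 on the log2 scale in A1956 (SE, edgeR adjusted p = 0.000668), and the difference of -7.49 ± 0.98 between the genotypes was called (adjusted p = 5.40e-06). DUF1997 (Prupe.3G263500) had 290 and 219 CPM in A1956 flowers and 810 and 889 CPM in A1956 buds, KDR (Prupe.1G271700) 3.81 and 5.44 CPM in A1956 flowers and 15.2 and 14.9 CPM in A1956 buds, and the EamA-like gene (Prupe.6G249600) 36.7 and 42.9 CPM in A1956 flowers and 148 and 134 CPM in A1956 buds. In each, A1956 flowers were below A1956 buds, but far less so than in A2137, with called differences of -5.53 ± 0.86, -4.30 ± 0.56 and -4.24 ± 0.49. EXPA15 (Prupe.3G265800) likewise fell to 79.4 and 91.5 CPM in A1956 flowers, against 801 and 874 CPM in A1956 buds.

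On the other side, JMT (Prupe.1G375800) had 7.15 and 8.25 CPM in A1956 flowers and 2.76 and 5.51 CPM in A1956 petal visible buds, and the difference between the genotypes was 3.63 ± 0.52 (SE, edgeR adjusted p = 0.000107). CEL2 (Prupe.5G131300), a cellulase, had 92.7, 86.8 and 76.4 CPM in A2137 flowers and 5.4, 8.93 and 9.69 CPM in A2137 buds, but 13.5 and 22.5 CPM in A1956 flowers and 25.8 and 18.3 CPM in A1956 buds, a difference of 3.69 ± 0.74. STP13 (Prupe.1G157000) had 15.8 and 16.8 CPM in A1956 flowers and 10.7 and 11.6 CPM in A1956 buds, and chitinase EP3 (Prupe.1G204700) 11.7 and 17.9 CPM in A1956 flowers and 10.04 and 10.8 CPM in A1956 buds, with differences of 3.29 ± 0.43 and 3.10 ± 0.50. A kinase gene with an ACT-like domain (Prupe.1G358800) had 8.95, 10.4 and 11.4 CPM in A2137 flowers and 0.930, 0.496 and 0.646 CPM in A2137 buds, against 1.15 and 2.14 CPM in A1956 flowers and 1.28 and 0.875 CPM in A1956 buds (3.27 ± 0.54).

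For a few genes the levels of the genotypes also lay apart, which was not tested. The terpene synthase TPS03 (Prupe.4G125300) had 6.35 and 6.10 CPM in A1956 flowers and 6.81 and 8.31 CPM in A1956 petal visible buds, so its high level was seen in A2137 buds and in no A1956 library of these stages. Phospholipase PLP2 (Prupe.1G440000) had 28.6, 29.5 and 29.4 CPM in A2137 flowers and 25.8, 23.6 and 25.9 CPM in A2137 buds, a difference of 0.22 ± 0.35 that was not called. In A1956 it had 2.31 and 1.81 CPM in flowers and no reads in either petal visible library, so no fold is given for A1956 or for the difference between the genotypes, which was called (edgeR adjusted p = 0.00186). The unannotated Prupe.1G090000 had 0.692 and 0.165 CPM in A1956 flowers and 0.674 and 1.40 CPM in A1956 buds, near the limit of detection at both stages, where A2137 buds had at least 212 CPM. The only gene called in opposite directions was the unannotated Prupe.3G256000, with 7.89, 5.85 and 7.31 CPM in A2137 flowers and 0.930, 0.992 and 0.795 CPM in A2137 buds (2.96 ± 0.33), and 0.923 and 1.40 CPM in A1956 flowers and 10.4 and 10.2 CPM in A1956 buds (-3.11 ± 0.41).

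**Figure D5:**
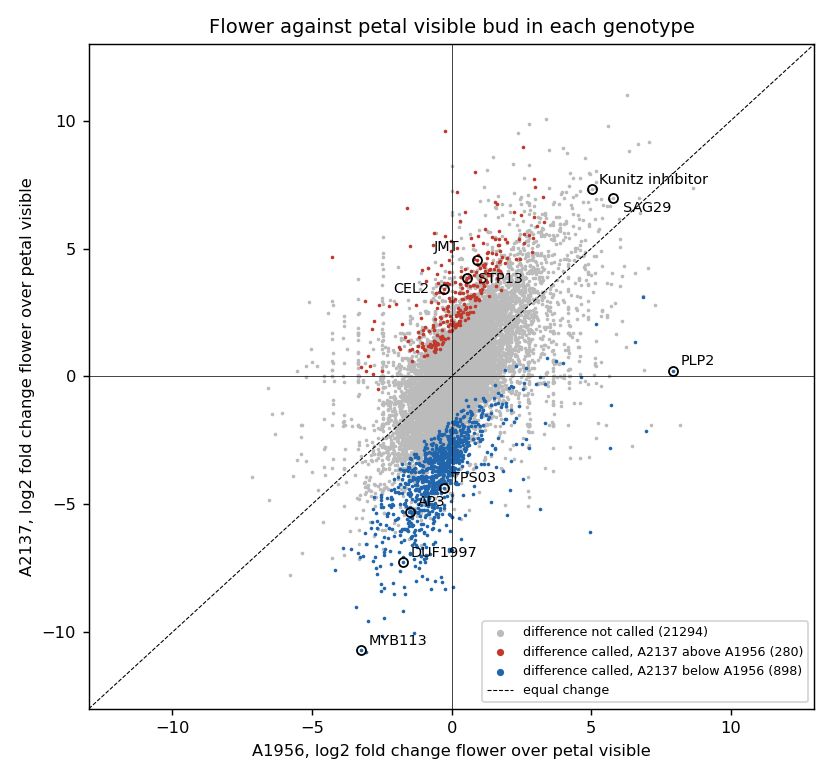
Log2 fold change of flower over petal visible buds in A2137 (vertical axis) against that in A1956 (horizontal axis), 1 point for each tested gene, with the dashed line at equal change. The 280 genes with a more positive change in A2137 (red) lie above the line and the 898 with a more negative one (blue) below it, and MYB113 stands at a fitted -10.72 in A2137 and -3.23 in A1956.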

How the data were processed

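RNA of A2137 and A1956 apricot flowers (800 chill hours) and petal visible buds was sequenced by the study, with one library for each tree at a stage. The authors trimmed 50 bp single reads, aligned them to the peach genome v2.0 with STAR (version 2.5.3a in the submitters' processing notes), counted them on exons with HTSeq, replaced the DAM region by the 6 genes of the v1.0 annotation, and deposited raw counts for 26872 genes in each library, without normalization. Strand setting and the handling of reads shared by gene copies are not given in the sources used here.

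Counts were used as deposited. All 60 apricot libraries, in 24 groups of genotype and time point, entered one fit by edgeR 4.0.16 (limma 3.58.1, R 4.3.3). Genes passed filterByExpr with a minimum count of 10 and a total of 15, libraries were scaled by TMM, and glmQLFit was followed by glmTreat against a 2-fold change, with Benjamini-Hochberg adjusted p below 0.05 over 22472 genes. There were 3 contrasts: A2137, A1956, and their difference. The SE was derived as the size of the log2 difference over the root of its F value for no change. Ratios with 95% counting intervals replace the fitted folds of A2137 where 1 group had at most 3 reads in every library. No library repeated another of its group (chi-square per gene of 12.9 to 28.1 between replicates).

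The replicate numbers were not taken as pairs in the main fit. Same-numbered flower and petal visible libraries deviated together with correlations of -0.09, 0.26 and -0.08. Differently numbered ones had correlations of -0.228 to 0.283. With 3 libraries for each stage, these values cannot settle whether a number marks 1 tree. The members and gene lists were chosen with earlier results of these data known. Lists were fixed by gene identifier from the study's annotation (2778 genes). Lists by product name could not be applied, since none of the identifiers was found in the name table used here. Genes named are the 10 annotated ones with the largest change in each direction (called, no overlap, mean of at least 10 CPM in the higher group), the 3 largest without annotation, in each list the 3 called members with the largest change and its most strongly expressed member, the 5 largest called differences between genotypes in each direction, and the DAM genes. Other genes with values in the text were named after their values were seen. Scripts were tested on simulated counts. Alternatives were a test against no change, DESeq2 1.42.0, its size factors, no filter, other sets of libraries, the replicate block, and leaving out single libraries. Python 3.11.15 and matplotlib 3.10.9 made the figures.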

Additional observations from a re-analysis of the deposited data

Results flagged for a closer look

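For 21 of 77 genes named by rule or as markers, the change from petal visible bud to flower differed between A2137 and A1956. This is by the test of the difference itself (edgeR), which called 5.24% of all genes tested. Some of the 77 were chosen as the largest called differences and others for a large change in A2137. The number called was thus set in part by that choice. The values are log2 changes in A2137 minus those in A1956, and the reasons for them were not tested.

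The most negative differences were those of the unannotated Prupe.1G090000 (-8.69), Prupe.3G234900 (-7.69) and Prupe.1G266300 (-7.03), MYB113 (Prupe.6G355700, -7.49), DUF1997 (Prupe.3G263500, -5.53), and PLP2 (Prupe.1G440000, -7.72). PLP2 had no called change in A2137 and no reads in A1956 petal visible buds, so that its fitted size depends on the small count added in the fit. Prupe.1G090000 was at most 1.40 CPM in the A1956 libraries of these stages. MYB113 had 4 reads in all in A2137 flowers. The fitted sizes of both thus rest in part on few reads. The cell growth regulator KDR (Prupe.1G271700, -4.30), the EamA-like transporter (Prupe.6G249600, -4.24), GSTF13 (Prupe.5G014900, -4.09), both TPS03 terpene synthases (Prupe.4G125300, -4.07, and Prupe.4G125200, -3.97), the exine gene LAP3 (Prupe.1G192200, -3.81), AP3 (Prupe.7G164100, -3.81), EXPA15 (Prupe.3G265800, -3.75), a lipid transfer protein (Prupe.8G102700, -3.38) and an Ole e 1 gene (Prupe.4G061100, -2.76) also had a more negative change in A2137. A more positive change in A2137 was found for the cellulase CEL2 (Prupe.5G131300, 3.69), JMT (Prupe.1G375800, 3.63), the hexose transporter STP13 (Prupe.1G157000, 3.29), the ACT-like kinase (Prupe.1G358800, 3.27) and the chitinase EP3 (Prupe.1G204700, 3.10). Groups of 3 or fewer libraries are too small for a test of single outlying libraries.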

How the results depend on the processing

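The A2137 counts of 2316 higher and 2364 lower genes stayed within 1.5 times under every alternative except 1: edgeR's test for any change, counting genes past 2-fold, called 3672 higher (3426 lower). DESeq2 called 1648 higher and 1830 lower, among them 1648 and 1829 of the edgeR calls. Under edgeR's test for any change, A1956 had 1650 higher and 1176 lower genes, and the difference between genotypes 1151 higher and 1856 lower. DESeq2 gave 264 and 184 genes in A1956 and 123 and 482 differences. When the fit held nothing but the compared libraries, A1956 had 791 higher and 485 lower genes. A fit of all A1956 libraries without the other genotypes gave it 478 lower genes. A fit of all libraries of both genotypes gave 420 higher differences. Leaving out 1 library gave 2026 to 2253 higher and 2184 to 2285 lower genes in A2137, 178 to 354 higher and 153 to 204 lower in A1956, and 187 to 279 higher and 584 to 949 lower differences. Replicate 1 of the A1956 petal visible buds gave the lowest of the 178 and 584.

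Whether a replicate number stands for the same tree at both stages is not given in the labels. With the number as a block, 2347 genes were higher and 2390 lower in A2137, and 536 and 312 in A1956. The block fit called 294 and 937 differences. Among the named genes, the change kept its sign under every alternative except for DAM2 (ppb017585m), which ranged from -1.19 (without flower replicate 3) to 0.19 (without petal visible replicate 2) and was at most 0.165 CPM. Calls of named genes were lost in 11 and gained in 12 of the gene and alternative combinations. The calls lost, given in the report, were those of CSLD1, SVP, a LEA gene, XTH2 and HSP20. The depth limits genes near 3 reads (0.138 to 0.279 CPM), and with 3 trees of 1 genotype for each stage the p-values say nothing of other genotypes or years.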

Other observations

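Single genes and families outside the lists are given here, chosen after their values were seen. CER1 (Prupe.2G113600), which makes wax alkanes, had 33.6, 29.9 and 25.2 CPM in flowers and 586, 622 and 691 CPM in petal visible buds, a log2 difference of -4.42 ± 0.38 (SE, n = 3 each, edgeR adjusted p = 4.59e-11). The lipase LTL1 (Prupe.6G354100) had 23.9, 24.9 and 10.8 CPM in flowers and 343, 580 and 470 CPM in buds (-4.54 ± 0.48), DCR (Prupe.2G298600), an acyltransferase of cutin synthesis, fell by 2.38 ± 0.22, and KCS11 (Prupe.1G472100), an enzyme of fatty acid elongation, fell by 2.42 ± 0.23. Of 17 annotated lipid transfer proteins tested, 1 was higher and 4 were lower, among them Prupe.7G248900 with 71.4, 82.4 and 49 CPM in flowers and 2354, 2254 and 2355 CPM in buds. Among all annotated genes tested, 9.66% were higher and 8.91% lower. The 1 that rose, Prupe.3G147800, had 1014, 738 and 1139 CPM in flowers and 176, 171 and 164 CPM in buds. In each of these genes the stages did not overlap. Of 10 GDSL lipases, 2 were lower and none was higher.

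The vacuolar invertase BETAFRUCT4 (Prupe.2G277900), which splits sucrose in the vacuole, had 24.4, 21.4 and 19.5 CPM in flowers and 572, 816 and 733 CPM in petal visible buds (-5.02 ± 0.26), while SIP2 (Prupe.7G064000), of raffinose breakdown, had 516, 511 and 582 CPM in flowers and 59.8, 65.2 and 78.1 CPM in buds (2.98 ± 0.28). The triterpene synthases LUP2 rose by 3.56 ± 0.19 (Prupe.3G025700) and 3.58 ± 0.16 (Prupe.3G025800), and LOX2 (Prupe.2G005300), an enzyme of jasmonate synthesis, rose by 2.12 ± 0.25. MYB101 (Prupe.3G216600), a factor of the pollen tube in Arabidopsis, had 1.25, 0.853 and 0.812 CPM in flowers and 25.6, 14.4 and 25.5 CPM in buds (-4.46 ± 0.62).

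In other annotated families most members were not called, and the shares called stand beside 9.66% higher and 8.91% lower of all annotated genes. Of 27 UDP-glycosyltransferases, which attach sugars to small molecules, 8 were higher and 4 lower. Of 24 MYB factors 6 were higher and 3 lower, of 35 leucine-rich repeat kinases 7 were higher and 7 lower, of 21 basic helix-loop-helix factors 4 were higher and 5 lower, and of 13 homeobox factors 3 were higher and 3 lower.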
